A study of Mus musculus with 41 samples.

Results

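The NADPH oxidase subunits described here were 8 mouse genes, Nox1, Nox4, Cybb, Cyba, Noxo1, Noxa1, Ncf1 and Ncf4. They were taken by gene name from the array annotation, where 11 probes carried these names among 41174 probes and 27962 gene names. Female C57BL/6 mice (C57BL/6BomTac in the study's methods) breathed surface-coated nanoTiO2, a titanium dioxide nanoparticle, at 40 mg/m3 or filtered air for 1 h/day on 11 days, and lung and liver were taken 5 days after the last exposure. All of them had been mated but had not conceived, and the mRNA labels give their age only as a gestation-day equivalent. Total RNA of each organ piece was labelled with Cy5 and hybridised beside Cy3-labelled reference RNA pooled from 11 mouse cell lines. There were 7 exposed and 6 control lung arrays, and 7 exposed and 8 control liver arrays, each from 1 mouse. Each value below is the log2 ratio of Cy5 to Cy3 at a probe, so it states the level relative to the reference RNA and is compared only between samples at the same probe.

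NADPH oxidases pass electrons from NADPH across a membrane to oxygen and so make superoxide or hydrogen peroxide. A catalytic subunit (NOX1, NOX2 or NOX4 here) sits in the membrane with p22phox, and NOX1 and NOX2 become active only when an organizer and an activator protein join them. The NOX2 enzyme is known for the oxidant burst of phagocytes, which clear particles and microbes from the airways, while the NOX1 system is best known from epithelial cells of the colon.

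The arrays passed as lung and liver by their markers. In control mice Sftpc, a surfactant gene of alveolar type 2 cells, had a mean log2 ratio of 5.04 in lung and 0.01 in liver, and the transthyretin gene Ttr had 0.07 in lung and 5.61 in liver. Between 55.1% and 70.5% of probes were well above background in Cy5 on each of the 28 arrays. Lung and liver arrays were on different slides and were read with different software versions, so tissue and slide cannot be told apart. Within a slide, exposed samples occupied array places 1 and 2 and controls places 3 and 4, so exposure and array place cannot be told apart either. In whole organs, fewer cells of a type and less RNA per cell also cannot be told apart.

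Noxo1, the organizer, and Noxa1, the activator of the NOX1 system, had the highest exposed-minus-control differences of the 8 genes in lung. The 8 genes were chosen by their values in this same lung comparison of exposed and control mice, so their lung differences are a description and no test is given for them. Their probes, as written in the array files and placed on mouse build mm7, are shown because these probes carry the pattern. The Noxo1 probe lies at chr17:22882646-22882705 on the plus strand, and its first 30 of 60 bases are printed. The Noxa1 probe, printed whole, is annotated to chr2:25094027-25094250 on the minus strand, a stretch 164 bases longer than the probe itself.
Noxo1: actgggacaggaacaagggactcgggttcc
Noxa1: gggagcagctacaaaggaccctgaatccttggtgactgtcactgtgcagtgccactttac

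The Noxo1 log2 ratio in control lung was lowest at 0.33, with a median of 0.54 and a highest value of 0.67 (mean 0.54 ± 0.12, SD, n = 6). In exposed lung it ran from 1.71 through a median of 2.17 to 2.30 (mean 2.12 ± 0.20, SD, n = 7). All 7 exposed arrays lay above all 6 control arrays. The difference was 1.58 on the log2 scale (SE 0.08), which is 2.98-fold. On each of the 3 slides that held both groups the exposed mean was higher, by 1.33 to 1.75. Before any normalization the net Cy5 signal of the Noxo1 spot ran from 334.5 to 1006 in control lung and from 1370.5 to 2729.5 in exposed lung. Its Cy3 reference signal was 286 to 402.5 beside controls and 401.5 to 466.5 beside exposed samples, and after scaling between arrays the mean Cy3 level was 0.19 higher and the mean Cy5 level 1.76 higher beside exposure.

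The Noxa1 log2 ratio in control lung ran from 0.37 through a median of 0.62 to 0.82 (mean 0.62 ± 0.17, SD, n = 6). In exposed lung it ran from 1.05 through 1.39 to 1.72 (mean 1.38 ± 0.24, SD, n = 7). The groups again did not overlap, with a difference of 0.76 (SE 0.11) or 1.70-fold. Within the 3 slides the difference was 0.48 to 1.21. Noxa1 was a dim probe, with a net Cy5 signal of 25 to 80 in control lung and 73 to 172 in exposed lung, and a reference signal between 6 and 20.5. With the scanner software's own processed signals in place of the corrected spot signals, the Noxa1 difference was 0.09 (SE 0.19), and with a background model that also used spots marked as outliers it was 0.35 (SE 0.27). The Noxo1 difference was 1.67 and 1.31 under the same changes. By real-time RT-PCR, a separate assay, the study reported altered mRNA of both Noxo1 and Noxa1 after exposure.

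**Figure D1:**
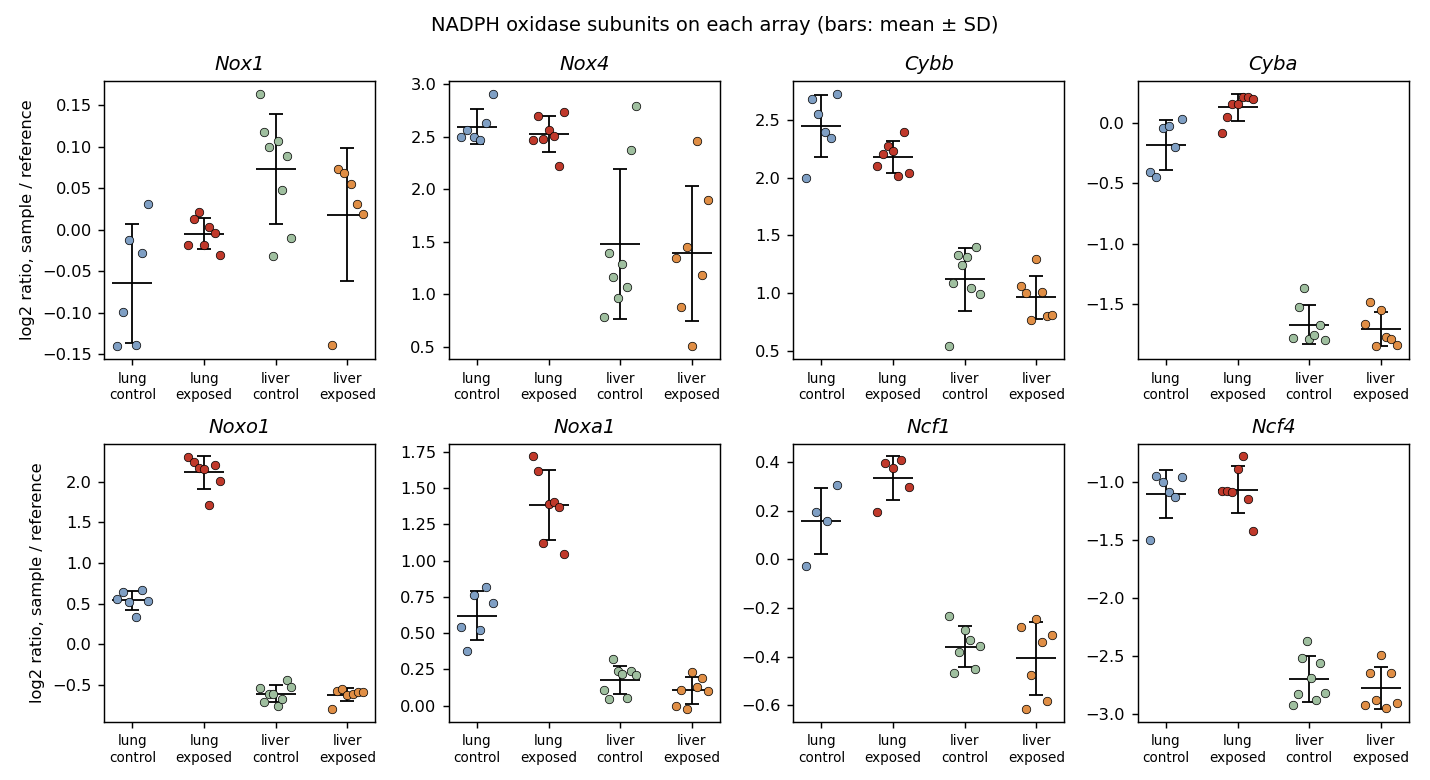
Each panel is 1 gene, with the log2 ratio of sample over reference RNA on the vertical axis, a point for each array at the gene's brighter probe, and bars for mean ± SD in control lung, exposed lung, control liver and exposed liver. Exposed lung arrays lie apart from control lung arrays for Noxo1 (1.71 to 2.30 against 0.33 to 0.67) and Noxa1 (1.05 to 1.72 against 0.37 to 0.82), and the panels have different vertical scales.

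Of the 8 genes, 2 had lung groups that did not overlap. Over all 41149 probes tested in lung, 0.574% had groups that did not overlap, and nothing is read from the members' count because the same comparison proposed them. The median difference over the 8 genes was 0.12, with 6 higher and 2 lower, and over all probes it was 0.00.

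Cyba encodes p22phox, the membrane partner that NOX1, NOX2 and NOX4 share. In control lung its log2 ratio ran from -0.45 through -0.12 to 0.03, and in exposed lung from -0.08 through 0.16 to 0.22. Of the 7 exposed arrays, 6 lay above every control array, and the exposed lung of mouse 1 lay within the control range. The difference was 0.31 (SE 0.08), or 1.24-fold, and 0.19 to 0.41 within slides. The Cyba probe is annotated to chr8:121068998-121069266 on the minus strand of mm7.
Cyba: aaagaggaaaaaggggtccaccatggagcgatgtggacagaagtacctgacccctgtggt

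The catalytic subunits showed no such separation in lung. Nox1, which encodes the enzyme that NOXO1 and NOXA1 serve, was well above background on 1 of 28 arrays, an exposed lung. Its log2 ratio ran from -0.14 to 0.03 in control lung and from -0.03 to 0.02 in exposed lung, so the arrays give only a bound for it and no fold is stated. Nox4 encodes an oxidase that is active without an organizer, and its log2 ratio ran from 2.47 through 2.53 to 2.91 in control lung and from 2.22 through 2.51 to 2.73 in exposed lung. These Nox4 ranges overlapped, with a difference of -0.07 (SE 0.08), and the second Nox4 probe gave 0.05 (SE 0.08). With the background model that used marked spots too, the brighter Nox4 probe gave -0.70.

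Cybb encodes NOX2, the phagocyte enzyme, and its probes differed from each other. At the brighter probe the log2 ratio ran from 2.00 through 2.47 to 2.73 in control lung and from 2.02 through 2.21 to 2.40 in exposed lung. The difference was -0.27 (SE 0.10), or 1.21-fold, and was between -0.41 and -0.19 within slides. At the second probe the ranges were 0.20 to 0.54 and 0.23 to 0.53, and the difference was 0.02 (SE 0.07). That probe was dim, with a net Cy5 signal of 20.5 to 63.5 in control lung and 22 to 48 in exposed lung. The offset of 50 used in background correction shrinks differences at such a probe. With the mean of both probes as the gene's value, over the arrays that had both, the Cybb difference was -0.12 (SE 0.08). The brighter probe gave -0.78 (SE 0.37) with the background model that used marked spots too. Both are shown because they sit in different stretches of the gene. The brighter probe lies at chrX:7870338-7870397, and none of its 3 forward reading frames is free of stop codons over its 60 bases (first 30 bases printed). The second, printed whole, is annotated to chrX:7875782-7877709, with 2 open frames.
Cybb, brighter probe: tccagtctgtaagctgaaaaagaagaacac
Cybb, second probe: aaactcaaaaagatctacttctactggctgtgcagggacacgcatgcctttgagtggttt

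Ncf1 and Ncf4 encode p47phox and p40phox, cytosolic proteins of the phagocyte oxidase, with p47phox acting as its organizer. The brighter Ncf1 probe was marked as an outlier on 2 control and 2 exposed lung arrays, and those spots were left out. In the other control lungs its values were -0.03, 0.16, 0.19 and 0.30, and in the exposed lungs 0.19, 0.30, 0.38, 0.40 and 0.41. Of the 5 exposed values 3 lay above all 4 controls, the difference was 0.18 (SE 0.07), and the second Ncf1 probe gave -0.02 (SE 0.07). Ncf4 ran from -1.50 through -1.05 to -0.94 in control lung and from -1.42 through -1.07 to -0.78 in exposed lung, with a difference of 0.04 (SE 0.10).

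**Figure D2:**
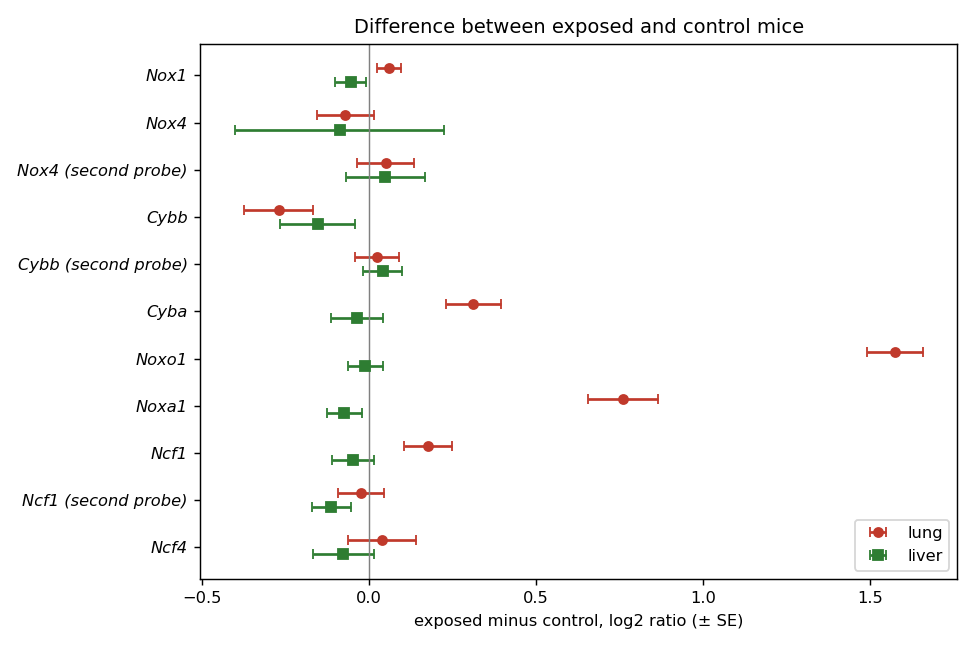
The horizontal axis is the exposed-minus-control difference in log2 ratio with its SE, for every probe of the 8 genes, with circles for lung and squares for liver. In lung Noxo1 lies at 1.58 and Noxa1 at 0.76, while all other probes lie between -0.27 and 0.31.

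Markers of other cells moved in the same lung comparison. The macrophage and monocyte list of 8 genes had a mean log2 ratio per array of 1.68 to 1.91 in control lung and 1.87 to 2.20 in exposed lung. Of its 8 genes, 2 were called higher by limma, both of them scavenger receptor genes: Marco by 0.57 (adjusted p = 0.00937) and Msr1 by 0.52 (adjusted p = 0.0193). The others were not called: 3 had higher means, Csf1r among them at 0.07 (adjusted p = 0.829), and 3 had lower means, Chi3l3 at -0.12, Ccr2 at -0.10 and Mrc1 at -0.07. All 7 neutrophil markers found on the array had lower means in exposed lung and 0 were called. The neutrophil list means were 1.48 to 2.62 in control and 1.22 to 2.18 in exposed lung. In lavage fluid the study reported a higher percentage of neutrophils and fewer macrophages in exposed mice. Lavage counts cells, whereas these lists read RNA of lung pieces. Of 3 ciliated cell markers, Foxj1 was called higher by 0.29 (adjusted p = 0.0372), with list means of 2.57 to 2.73 in control and 2.56 to 2.97 in exposed lung. Among all probes in lung, 0.194% were called. Limma called 0 markers of the lymphocyte (6 genes), alveolar type 2 (4), club cell (3), endothelial (4), smooth muscle and fibroblast (4), hepatocyte (4) and Kupffer cell (3) lists in lung. The hepatocyte list had means of 0.26 to 0.72 in control and 0.42 to 1.60 in exposed lung. The part of these cells in the oxidase values was not tested.

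The liver comparison was not used to choose the genes, so it was tested. All 8 brighter probes had lower means in exposed liver, by 0.01 to 0.15 on the log2 scale, where 47.9% of all probes had higher means, and limma called 0 of 8. The second probes of Nox4 and Cybb had higher means, by 0.05 and 0.04, and that of Ncf1 a lower one (-0.11). At an unadjusted p under 0.05 there were also 0 of 8, against 2.36% of all 41132 probes, and limma called 0% of all probes in liver. The genes' adjusted p-values were all 1.00.

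Noxo1 in control liver ran from -0.76 through -0.61 to -0.44 and in exposed liver from -0.80 through -0.59 to -0.55. The ranges overlapped almost wholly. The difference was -0.01 (SE 0.05, 95% interval -0.12 to 0.10), with p = 0.828 in a two-sided exact permutation test over 7 and 8 arrays. Noxa1 ran from 0.05 through 0.22 to 0.32 in control and from -0.02 through 0.11 to 0.23 in exposed liver, and it was well above background on 5 of 8 and 3 of 7 of them. Apart from control mouse 32 on slide 3, those livers were on slides 2 and 4. The net Cy3 reference signal of Noxa1 was 20 to 27 on slides 2 and 4 and 10 to 15 on slides 1 and 3. The Noxa1 difference was -0.07 (SE 0.05, 95% interval -0.18 to 0.04, exact permutation p = 0.16). These intervals bear on liver alone. The difference between the tissues was not tested, because the lung values chose the genes.

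Cyba differed by -0.04 in liver (95% interval -0.20 to 0.13), Ncf4 by -0.08 (-0.27 to 0.12), Ncf1 by -0.05 (-0.18 to 0.09) and Cybb by -0.15 (-0.39 to 0.08). Nox1 was well above background on none of the 15 liver arrays. Nox4 was the widest-spread member: at its brighter probe control livers ran from 0.78 through 1.23 to 2.79 and exposed livers from 0.51 through 1.35 to 2.46. Control mice 37 and 45, at 2.37 and 2.79, and exposed mice 19 and 23, at 2.46 and 1.90, stood above the other 11 livers, which were all at 1.45 or lower. At the second Nox4 probe the same 4 livers had 0.29, 0.32, 0.86 and 0.08 within a range of -0.18 to 0.86 over all livers. In the net Cy5 signal of that probe these 4 livers were the highest, at 100, 95, 73 and 61.5 against 60 or lower in the others. Its net Cy3 reference signal was 40 to 58.5 on slides 2 and 4 and 14.5 to 23 on slides 1 and 3. The liver difference of Nox4 was -0.09 with a 95% interval from -0.75 to 0.58.

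Control lung and control liver differed in nearly all subunits. Limma called 8 of 8 brighter probes, 7 higher and 1 lower in lung, against 57.9% of all 41145 probes called, 29.5% higher and 28.4% lower. The groups did not overlap for 6 of 8, against 41.4% of all probes. With so many probes called over the whole array, a call by itself sets little apart, and the sizes are of more use. The control lung arrays were also part of the lung comparison that chose the genes. The p-values between organs are therefore not wholly independent of that choice.

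By log2 ratio, Ncf4 had the widest gap among the phagocyte oxidase genes. It ran from -1.50 to -0.94 in control lung and from -2.93 to -2.37 in control liver, a difference of 1.60 (SE 0.10, adjusted p = 2.47e-10) or 3.02-fold. Cyba was 1.49 higher in lung (SE 0.09, adjusted p = 7.02e-10) and Cybb 1.33 higher (SE 0.13, adjusted p = 1.12e-07), where the second Cybb probe gave 0.18 (SE 0.07, adjusted p = 0.0312). This second probe was dim and was well above background on 5 of 8 control livers. Ncf1 was 0.52 higher (SE 0.07, adjusted p = 1.19e-05), and its second probe gave 0.78. All of these ranges were apart except that of the second Cybb probe. After scaling between arrays, the mean Cy5 level alone was 1.84 higher in control lung for Cyba and 1.57 higher for Ncf4. The mean Cy3 level beside control lung minus that beside control liver was 0.35 for Cyba and -0.03 for Ncf4.

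In the NOX1 system Noxo1 was 1.15 higher in control lung than in control liver (SE 0.06, adjusted p = 2.43e-11), or 2.22-fold, and higher in all 6 mice that gave both organs, by 0.95 to 1.43. Noxa1 was 0.44 higher (SE 0.07, adjusted p = 2.82e-05), by 0.29 to 0.65 within mice. With the scanner's processed signals the Noxa1 gap between organs was 2.30 (SE 0.32), and 5 of 8 control livers were well above background. For both, the exact permutation p was 0.000333, the smallest that 6 against 8 arrays can give. Nox1 was called lower in lung at -0.14, but it was well above background on 0 of 14 control arrays, so neither a fold nor a direction is given for it. Under 5 other settings it was not called.

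Nox4 was 1.12 higher in lung (SE 0.26, adjusted p = 0.00147) and its groups overlapped, because the liver of control mouse 45, at 2.79, lay within the lung range of 2.47 to 2.91, and that of mouse 37, at 2.37, lay just below it. In the 6 mice with both organs the Nox4 gap was 1.17 to 1.84. The second Nox4 probe gave 1.07 (SE 0.09, adjusted p = 2.38e-08) with no overlap. Setting the 4 groups in order, Noxo1 and Noxa1 were highest in exposed lung and next in control lung, and their liver groups did not differ beyond their spread. For Cybb, Ncf1, Ncf4 and Nox4 the lung groups lay above the liver groups by their means, and exposed and control animals overlapped within each organ. Cyba had the same order of organs, with exposed lung 0.31 above control lung.

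**Figure D3:**
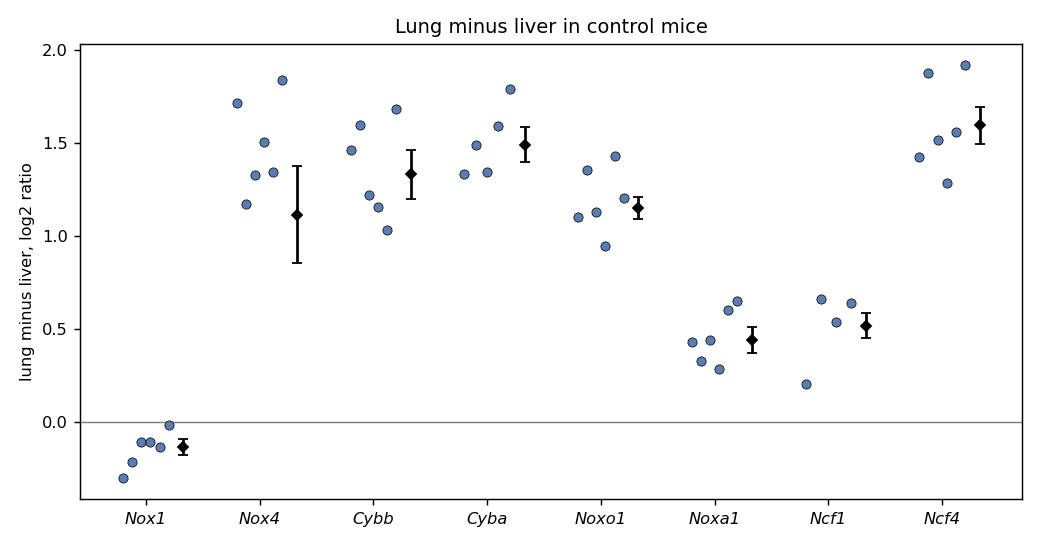
The vertical axis is the log2 ratio in lung minus that in liver of the same control mouse at the brighter probe, a point for each of up to 6 mice, with a diamond and SE bar for the difference over all control arrays. Cyba, Cybb, Ncf4, Nox4, Noxo1, Noxa1 and Ncf1 are above 0 in every mouse with both values, and Nox1, which was not well above background, lies between -0.30 and -0.02.

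Other genes of the pathway were looked at as a list of 40, of which 39 were on the array. In lung limma called 0 of 39, and 4 had an unadjusted p under 0.05 against 7.18% of all probes. The median difference of the list was 0.00, with 20 higher and 19 lower, as over all probes (0.00).

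Among 10 other oxidase components 0 were called in lung. Rac1, a small GTPase that joins both oxidases, differed by -0.15 (SE 0.09) at its brighter probe and by 0.14 (SE 0.08) at its second. Rap1a, another small GTPase, differed by -0.16 (SE 0.06, adjusted p = 0.624). Duox2, a peroxide-producing oxidase of epithelia, differed by -0.21 (SE 0.14, adjusted p = 0.789), and by -0.12 without control mouse 27. Of 11 regulators of assembly 0 were called, and the kinase genes Prkcd and Prkcb had the largest absolute differences, 0.16 (SE 0.06) and -0.15 (SE 0.12). The Prkcb value rested on 4 control lungs and ran from -0.23 to -0.08 as each array was left out, and its second probe gave -0.00 (SE 0.07). Of 18 superoxide and peroxide enzymes 0 were called. Sod2, the mitochondrial superoxide dismutase, differed by 0.41 (SE 0.14, adjusted p = 0.547) over 6 exposed and 5 control lungs, the other spots being marked, and Sod3, the secreted one, by 0.24 (SE 0.07, adjusted p = 0.391). Catalase (Cat) differed by -0.00 (SE 0.10). No gene of the 39 had lung groups that did not overlap.

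In liver limma called 0 of 38 partner genes that could be tested, and 1 had an unadjusted p under 0.05. That gene was Prkcb at -0.23 (SE 0.09), with 0.03 (SE 0.08) at its second probe. Gpx1, a glutathione peroxidase gene, was not tested in liver because its spots were marked as outliers. Mpo, the neutrophil myeloperoxidase, differed by -0.29 in liver (SE 0.24), a value carried by control mouse 32 at 1.83, without which it was -0.04. Lpo, another peroxidase, differed by 0.12 (SE 0.08).

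**Figure D4:**
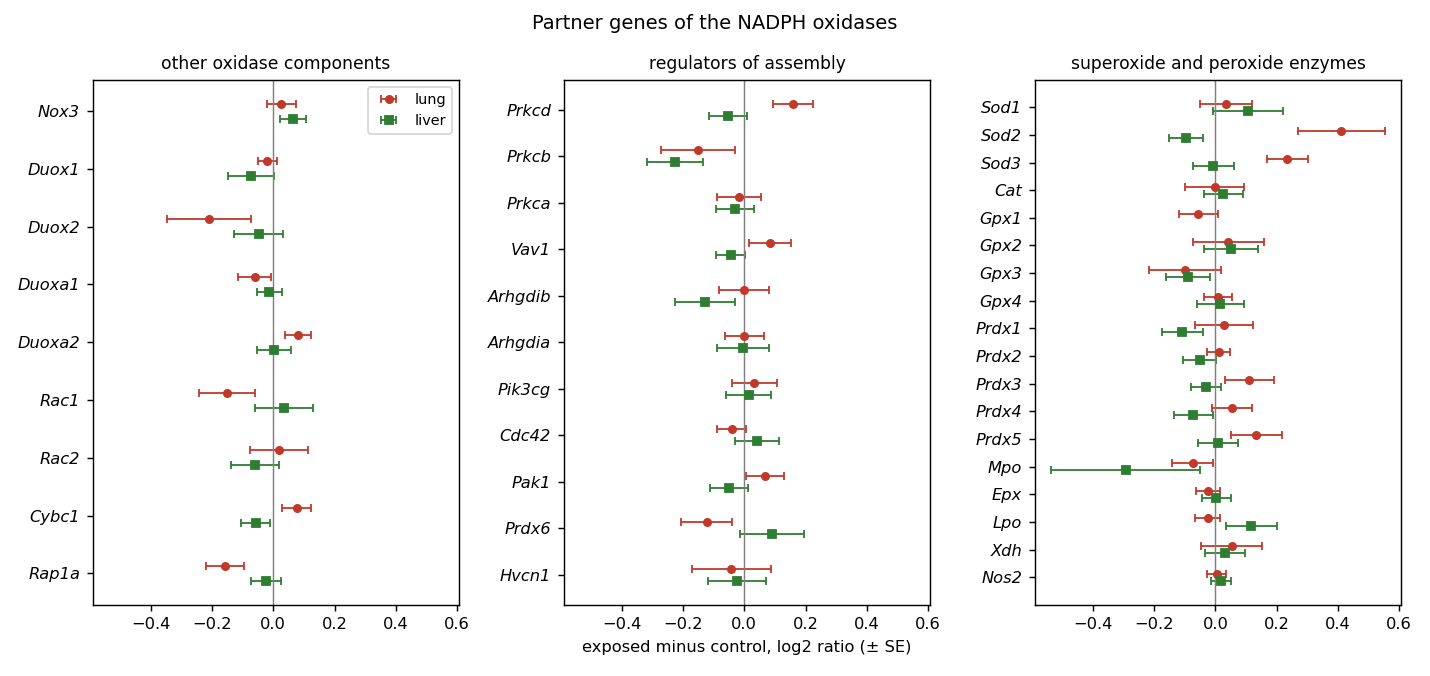
The horizontal axis is the exposed-minus-control difference in log2 ratio with its SE for 38 of the partner genes in 3 sublists, circles for lung and squares for liver. None was called, and in lung all lie between -0.21 and 0.41.

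Between control lung and control liver 33 of 38 partner genes were called, 20 higher in lung and 13 lower. Of 10 other oxidase components 9 were called, 6 higher and 3 lower. Cybc1, which encodes a chaperone of NOX2, was 1.15 higher in lung (adjusted p = 9.26e-12). The probes of Rac1 disagreed, with 1.97 at the brighter (adjusted p = 4.53e-12) and -0.02 at the second (adjusted p = 0.874), both well above background on all control arrays. Duox1 was called lower, but in control lung 0 of 6 arrays had it well above background, so no size is given. Of 11 regulators 10 were called, 9 of them higher in lung, with Hvcn1, the proton channel that accompanies NOX2 activity, 2.45 higher and Arhgdib, an inhibitor of small GTPases in blood cells, 2.15 higher. Of the superoxide and peroxide enzymes, a list that also holds oxidant sources and peroxidases, 14 of 17 were called, 5 higher and 9 lower. Cat was lower in lung (-3.56, adjusted p = 4.45e-14), as were Prdx4 (-1.66, and -0.69 at its second probe), Prdx3 (-1.52) and Sod2 (-1.20), whereas Gpx2 was 3.57 higher and Gpx3 2.49 higher.

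Within the lung groups, the subunits were compared array by array after each group's mean was subtracted, so that exposure does not enter. These correlations over 13 arrays, which share slides, are a description and carry no p. Noxo1 and Noxa1 had Pearson's r = 0.30 (Spearman's rank correlation 0.43), so mice with the most Noxo1 within a group were not clearly those with the most Noxa1. Noxo1 and Cyba had r = -0.51 (rank correlation -0.65). Cybb and Ncf4 had r = 0.56 (rank correlation 0.36). Cybb had r = 0.60 with the macrophage and monocyte list (rank correlation 0.67), and 0.35 without the 2 arrays farthest from that list's median. With the lymphocyte list Cybb had r = 0.56 (rank correlation 0.43), and 0.20 without 2 arrays. With the smooth muscle and fibroblast list Cybb had r = -0.50 (rank correlation -0.41), and -0.61 without 2. Nox4 had r = 0.67 with the ciliated list (rank correlation 0.62), and 0.53 without 2. Ncf4 had r = 0.88 with the lymphocyte list (rank correlation 0.92), and 0.91 without the 2 farthest arrays. Noxo1 had r from -0.61 (Kupffer cell list, rank correlation -0.51) to 0.33 (club cell list, rank correlation 0.35) over the 10 lists, and without the 2 farthest arrays these were -0.26 and 0.50. With the macrophage list Noxo1 had r = 0.21 (rank correlation -0.12), and 0.16 without 2 arrays. With the neutrophil list it had 0.20 (rank correlation 0.26), and 0.40 without 2, and with the ciliated list 0.26 (rank correlation 0.36), and 0.57 without 2.

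The genes whose within-group pattern was most like that of Noxo1, among 17796 probes well above background on all 13 lung arrays, were Air (r = 0.90), Vezt (0.88), NAP000727-001 (0.87), 4930519P11Rik (0.87) and Pak1 (0.86). Those most like Cybb were Fbxo5 (0.92), Myo1g (0.90), Raver2 (0.89), Tm6sf1 (0.88) and 2310035P21Rik (0.88). With 13 arrays and this many probes, values of this size are the top end of a long list. Pak1 encodes a kinase that binds Rac, and this probe of it differed by 0.04 between exposed and control lung (SE 0.07, limma adjusted p = 0.939). The brighter Pak1 probe, which differed by 0.07, lacked a value on an exposed lung array and was not among the probes compared. The Pak1 entry therefore rests on the dimmer probe alone.

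The 250 bases upstream of the Noxo1 and Noxa1 starts, the pair that stood apart in lung, were read from RefSeq promoters on build GRCm38.p6. Capitals mark matches on either strand to the GC box with the letters GGGCGG, the CCAAT box, the TATA box spelled as TATAAA and the AP-1 site in the form TGANTCA. The windows are chr17:24695984-24696233 on the plus strand for Noxo1 and chr2:25095206-25095455 on the minus strand for Noxa1.
Noxo1 promoter: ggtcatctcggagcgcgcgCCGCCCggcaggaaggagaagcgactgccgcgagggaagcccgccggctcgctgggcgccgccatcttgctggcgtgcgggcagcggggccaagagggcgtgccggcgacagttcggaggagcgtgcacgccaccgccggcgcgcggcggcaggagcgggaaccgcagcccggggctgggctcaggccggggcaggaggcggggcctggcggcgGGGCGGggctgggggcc
Noxa1 promoter: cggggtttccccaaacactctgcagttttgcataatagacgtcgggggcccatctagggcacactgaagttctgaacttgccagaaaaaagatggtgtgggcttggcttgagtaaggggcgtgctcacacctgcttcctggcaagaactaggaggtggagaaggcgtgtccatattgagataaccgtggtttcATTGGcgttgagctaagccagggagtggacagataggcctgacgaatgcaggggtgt

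The pair had little in common in these windows. The Noxo1 window was 80.0% G and C with 37 CG dinucleotides, and 1.23% of 32851 promoters of the same length had as much G and C. The Noxa1 window was 53.2% G and C with 8 CG dinucleotides, near the medians of 52.4% and 6. Noxo1 held 2 GC boxes and Noxa1 none, where 32.7% of promoters held at least 1. Noxa1 held 1 CCAAT match and Noxo1 none (33.8% of promoters), and neither held TATAAA (12.4%) or TGANTCA (6.75%). The Cybb window held 1 TGANTCA match and 1 CCAAT match. Promoters were given for 7 of the 8 genes, Ncf4 being the exception. A match states only that the letters are present.

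**Figure D5:**
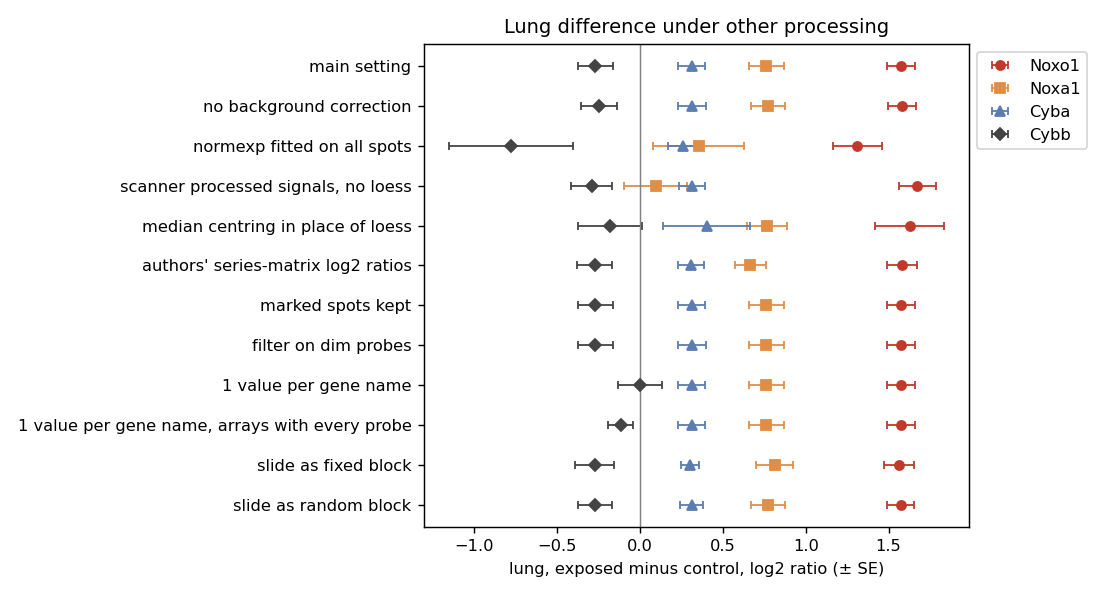
The horizontal axis is the lung exposed-minus-control difference in log2 ratio with its SE for Noxo1, Noxa1, Cyba and Cybb, and each row is a way of processing the same arrays. Noxo1 lies between 1.31 and 1.67 in every row, Noxa1 between 0.09 and 0.81, Cyba between 0.26 and 0.40 and Cybb between -0.78 and 0.00. In the row with 1 value per gene name, which holds that 0.00, exposed mouse 1 entered with the brighter Cybb probe alone, and the row restricted to arrays with every probe lies at -0.12.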

How the data were processed

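Of the series' arrays, the 28 two-colour mRNA arrays (Agilent, 45018 spots, 4 slides per tissue) were analysed, and the miRNA arrays were not used here. Per the file headers, Agilent Feature Extraction 9.5.3.1 (lung) and 10.1.1.1 (liver) gave the deposited spot intensity values in both channels. No dyes were swapped. The authors normalised by global LOWESS, and the deposited matrix holds their log2 ratios, with column medians from -0.04 to -0.02 and r of at least 0.99 with the values here, so its direction is Cy5 over Cy3.

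Median spot intensities were corrected with limma 3.58.1 in R 4.3.3 (normexp, offset 50, local background, model fitted without spots marked as outliers), normalised by loess within each array with control spots at weight 0, and averaged per probe after control and marked spots were left out. An offset of 50 shrinks the differences of dim probes. Groups were compared over all probes with lmFit and eBayes, adjusted by Benjamini-Hochberg, called under 0.05. Depth has no counterpart here, and the number of arrays limits precision. The probe with the highest mean signal stands for a gene. Named were every member, the partner genes with the largest differences, and the 5 genes most like Noxo1 and Cybb. Samples are single mice, as far as the labels tell. The 6 control mice with both organs are the same animals by number. Their lung and liver deviations correlated at -0.01 to 0.11. For mice 26, 27 and 34 the highest correlation with another mouse was larger. These were -0.01 against 0.11, 0.02 against 0.05 and 0.060 against 0.064, so the pairing rests on the numbers. The members, the lists and the tests were chosen with earlier results of these data known. The scripts' test was checked on simulated data. Prex1 and Ly6g were not matched on the array, and 5 genes were matched through older names in the RefSeq table (GRCm38.p6). No per-sample column was left without a sample. Other settings tried were background correction, normalization, the authors' ratios, marked spots, leaving out dim probes (those that passed the scanner's background test on under 50% of arrays in both groups), 1 value per gene name (also, chosen after seeing the data, over arrays with every probe of the gene), slide as a block, mouse as a block, all arrays in the fit and each array left out. Figures used matplotlib. For 1 partner gene, which is included in the counts, no values are reported here.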

Additional observations from a re-analysis of the deposited data

Results flagged for a closer look

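Among 44 sets of values (a probe of the 8 genes in a group), 5 held an array whose gap to the nearest other array was large for the group's whole range by Dixon's test. Chance flags about 1 in 20 such sets. In control mouse 24 the liver Cybb value was 0.54, with the next at 0.99, and the lung Ncf4 value was -1.50, with the next at -1.13. In exposed mouse 1 the liver Noxo1 value was -0.80, with the next at -0.62, and the liver Nox1 value was -0.14, with the next at 0.02, from a probe not well above background. In exposed mouse 19 the liver value of the second Nox4 probe was 0.86, with the next at 0.37. No flagged array lay in the lung values of Noxo1 or Noxa1, and no explanation was tested.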

How the results depend on the processing

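The lung groups of 2 members did not overlap as reported. That number was 1 with the background model fitted on all spots and 1 with the scanner's processed signals, where Noxa1 overlapped, and it was 2 to 3 with each lung array left out. The cause was not tested. It was 3 without exposed mouse 1, where Cyba was added, and without control mouse 32, where Ncf1 was added. Limma called 0 members in liver under every setting run. Between control lung and liver it called 7 to 8 under every setting and 8 with each array left out, and Nox1, not well above background, was the gene lost or, with dim probes left out, not tested (adjusted p = 0.0699 to 0.983 where lost). With mouse as a replicate block, fixed over the 6 mice with both organs or random over all control arrays, it called 8 and 8, so the block changed no call. Partner genes called were 0 in lung and 0 in liver under every setting and with each array left out. Of 605 member values under other settings, 591 were counted as unchanged. In lung this meant a move of less than 1 SD. In liver and between organs it meant the same side of the threshold, with no change of direction where called. Uncalled liver values could change sign and still count, as Noxo1 did at -0.13 to 0.10 under other processing. Over all lung probes 80 were called, against 12 with the background model on all spots, 4 with median centring and 126 with slide as a random block. Dim probes such as Nox1 and Noxa1 limit what the arrays resolve. A mean per gene over arrays with every probe, chosen after seeing the data, gave 2 members apart in lung, 0 called in liver and 8 between organs.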
